A study of Ficus obtusifolia with 4 samples.

Results

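The transcripts described here are those of Ficus obtusifolia flowers whose level moved the same way in gall flowers and in seed flowers within 24 hours of the entry of a pollinating wasp. For each transcript the ratio of pollinated to receptive level was taken within each flower type, and a transcript was a member where both ratios were at least 2, or both at most 0.5. Levels are RPKM, in which the read count is scaled for transcript length and library size. To enter the comparison a transcript needed at least 10 reads in each receptive library and had to pass an RPKM of 20 in 1 or more libraries, which 10267 of the 54550 transcripts of the series did. Of these, 417 were members, with 182 higher and 235 lower in the pollinated flowers.

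RNA was sequenced from 4 pools of flowers of a single tree. Gall flowers were those lying towards the centre of the syconium and seed flowers those lying towards its wall, so position alone decided the flower type. Syconia were bagged against wasps. Receptive gall and receptive seed flowers came from syconia that no foundress had entered, and pollinated gall and pollinated seed flowers from other syconia of the tree, each entered by 1 foundress of Pegoscapus hoffmeyerii 24 hours earlier. Each of these 4 groups is 1 library made from flowers of several syconia, so the change between stages cannot be told apart from the time that passed, from the hour of collection, or from differences between the syconia sampled.

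A fig syconium is an inflorescence closed around its flowers, and a female wasp, the foundress, enters it to pollinate and to lay eggs through the styles. A flower that receives an egg turns into a gall that feeds the larva, and a flower that receives only pollen ripens a seed. In flowers in general, the passage from receptivity to ovary growth draws on sugar import, loosening and rebuilding of cell walls, and a change in hormone signalling, above all of auxin and ethylene.

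Mapped reads numbered 51063005 in receptive gall, 58969477 in pollinated gall, 11584069 in receptive seed and 22141107 in pollinated seed flowers, and between 82.3% and 85.8% of them lay on the 10267 transcripts compared. At these depths 10 reads on a transcript of 1 kb are an RPKM of 0.196, 0.17, 0.863 and 0.452 in the same order. Reads on transcripts described by a hymenopteran genus numbered 45219 in pollinated gall flowers and between 2 and 24 in the other libraries, and 0 of these 490 transcripts entered the comparison. These words find only part of the wasp transcripts. The authors assigned many more to Hymenoptera from protein matches, and whether any of those entered the comparison was not tested. Transcripts are called here by the locus number of the deposited assembly, and their descriptions are matches to proteins of other species.

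Past the ratio of 2, gall flowers had 583 transcripts (5.68%) and seed flowers 1251 (12.2%), and at or under the ratio of 0.5 they had 582 (5.67%) and 1102 (10.7%). The 182 higher members were 1.77% of the transcripts compared, 31.2% of those that were higher in gall flowers and 14.5% of those that were higher in seed flowers. The 235 lower members were 2.29% of the transcripts compared, 40.4% of those lower in gall flowers and 21.3% of those lower in seed flowers. Across all 10267 transcripts the log2 ratios of the flower types were weakly related (Pearson's r = 0.19, Spearman's rho = -0.07, a description across transcripts that share the 4 libraries). The median log2 ratio was 0.03 in gall and 0 in seed flowers. Scaling to library totals favours a median near 0 but does not fix it.

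**Figure D1:**
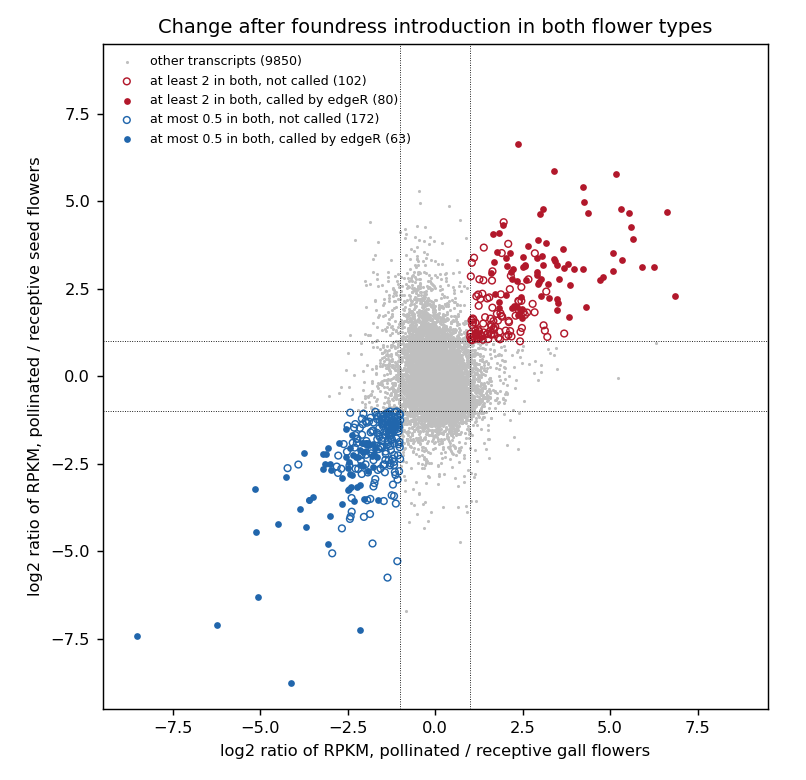
Each point is 1 of the 10267 transcripts, with its log2 ratio of pollinated to receptive RPKM in gall flowers on the x axis and in seed flowers on the y axis. The 182 higher members lie at the upper right and the 235 lower members at the lower left, beyond dotted lines at log2 ratios of 1 and -1, with filled points for the 80 and 63 that the edgeR test called. The lower members reach the largest changes, past -8 in either flower type, at values that rest on few pollinated reads. The lowest in gall flowers is Locus 52935, with 1269 receptive and 4 pollinated reads. In seed flowers it is Locus 53703, with 229 and 1, a sequence of 164 bp described as a hypothetical protein of Helicobacter pylori.

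The ratios chose the members and are given as a description. A test over all 10267 transcripts used edgeR's quasi-likelihood F-test on the read counts, with flower type as a block and Benjamini-Hochberg adjustment, and a transcript was called where the adjusted p was under 0.05. It called 143 transcripts (1.39%), 80 higher (0.779%) and 63 lower (0.614%) in pollinated flowers, and all 143 were members. The test has 1 residual degree of freedom, and its only measure of spread is how far the change in gall flowers departed from the change in seed flowers, so its p-values say nothing of the variation between trees or between syconia. Without the block 0 transcripts were called by edgeR, with 331 at an unadjusted p under 0.05 against 633 with it. With 1 library left out, the other 3 leave no residual degree of freedom for a fit with the block, so it was dropped, and between 0 and 27 transcripts were called. In the text that follows, "rose" and "fell" are kept for transcripts that the edgeR test called, fold changes from edgeR are given on the log2 scale with their standard error, and counts of members are read against the shares of 1.77% and 2.29% above.

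The higher members had low receptive levels, which the ratio and the RPKM minimum that chose them favour. A level here is that of a pool of whole flowers, in which more cells of a type and more RNA per cell cannot be told apart. Their median RPKM was 10.6 in receptive and 52.8 in pollinated gall flowers and 5.23 in receptive and 25.2 in pollinated seed flowers, whereas the median of all transcripts compared lay between 32.9 and 34.5 in every library. Together they took 0.486% of the reads of receptive gall flowers and 2.19% of those of pollinated gall flowers, and 0.275% and 1.24% in seed flowers. Their median ratio was 4.42 in gall flowers and 4.53 in seed flowers, and 73 of them were at least 4-fold and 28 at least 8-fold higher in both. The lower members had a median RPKM of 38 and 10.5 in receptive and pollinated gall flowers and of 56.1 and 13.6 in receptive and pollinated seed flowers, with 67 at least 4-fold and 13 at least 8-fold lower in both. The exact binomial 95% intervals of both ratios left out 1 for 416 of the 417 members, and they lay wholly past the threshold that chose the members for 147 of the 182 higher and 176 of the 235 lower members. They hold the error of counting and nothing else, and reads that carry no molecular identifier can be copies of 1 molecule.

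Judged by the flower type that changed less, the steepest rise among described transcripts was that of Locus 15897, an alpha-amylase subtilisin inhibitor, of the Kunitz-type proteins known from cereal grains to block starch-splitting and protein-splitting enzymes. Its RPKM was 4.702 in receptive and 169 in pollinated gall flowers and 1.99 in receptive and 109 in pollinated seed flowers. Both pollinated libraries lay far above both receptive ones, with ratios of 35.9 (95% interval 31.9 to 40.4) in gall and 54.9 (37.9 to 82.8) in seed flowers and an edgeR log2 change of 5.43 ± 0.48 (edgeR adjusted p = 0.0004002). A second transcript of that description, Locus 4547, rose from 29.1 to 136 in gall flowers and from 2.40 to 19.97 in seed flowers (edgeR adjusted p = 0.0164), and Locus 5739, a trypsin-like protease inhibitor, rose from 1.11 to 30.98 in gall flowers and from 1.85 to 13.3 in seed flowers (edgeR adjusted p = 0.0439). A further such transcript, Locus 6254, had 5.37 and 38.7 in gall flowers and 0.894 and 10.2 in seed flowers (edgeR adjusted p = 0.0506). Thus 4 of the 5 transcripts described as amylase or Kunitz-type inhibitors were higher members and 3 were called, in a list put together after the values were seen.

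Some transcripts for sugar supply were higher in both flower types. Locus 20921 was described as a bidirectional sugar transporter of the N3 type, the family that lets sucrose or glucose leave cells along its gradient. Its RPKM was 9.74 in receptive and 182 in pollinated gall flowers and 1.796 in receptive and 77.2 in pollinated seed flowers, the highest level among the 10 described higher members named by rule, and its edgeR log2 change was 4.77 ± 0.50 (edgeR adjusted p = 0.000892). Levels of 2 transcripts described as ERD6-like 7 sugar transporters rose as well, Locus 69 from 40.5 to 192 in gall flowers and from 35.5 to 144 in seed flowers (edgeR adjusted p = 0.0243) and Locus 4978 from 36.6 to 140.02 in gall flowers and from 4.57 to 91.4 in seed flowers (edgeR adjusted p = 0.02802). The second of these changed unequally, by 3.82-fold in gall and 19.995-fold in seed flowers. In the list of sucrose, sugar transport and starch genes 5 of 39 were higher members (12.8%), 0 were lower members and 3 were called. Starch breakdown and synthesis gave the remaining members of the list, an alpha-amylase isozyme (Locus 2483, 8.43 and 20.6 in gall flowers and 1.62 and 7.54 in seed flowers) and a starch initiation protein (Locus 21220, 21.4 and 50.3 in gall flowers and 3.87 and 19.6 in seed flowers), neither of them called by edgeR. Outside the list, and noted after its values were seen, the acid invertase Locus 2520 (acid beta-fructofuranosidase, which splits sucrose) rose from 14.9 to 52.8 in gall flowers and from 1.13 to 19.4 in seed flowers (edgeR adjusted p = 0.02999).

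Enzymes that build or trim cell walls were among the higher members. Locus 1633, a pectinesterase, which strips methyl groups from pectin, had an RPKM of 1.38 in receptive and 63.5 in pollinated gall flowers and 0.674 in receptive and 17.2 in pollinated seed flowers (edgeR log2 change 5.13 ± 0.54, adjusted p = 0.000892). Locus 3930, a glucomannan 4-beta-mannosyltransferase, which builds the backbone of mannans, had 2.99 in receptive and 62.1 in pollinated gall flowers and 0.672 in receptive and 17.2 in pollinated seed flowers (edgeR adjusted p = 0.00124). Both were close to absent before the wasp entered, and pollinated gall flowers reached the highest level. Polygalacturonases, which cut pectin, rose from 5.36 to 24.8 in gall flowers and from 7.06 to 48.97 in seed flowers (Locus 791, edgeR adjusted p = 0.0175) and from 2.86 to 23.3 in gall flowers and from 5.704 to 27.9 in seed flowers (Locus 11102, edgeR adjusted p = 0.0299), and in both the pollinated seed library was the highest of the 4. Of the pectin list 4 of 38 transcripts (10.5%) were higher members and 1 (2.63%), a pectinesterase inhibitor (Locus 21049, 88.4 and 39.9 in gall flowers and 93.8 and 34.2 in seed flowers), was a lower member. The words of the list do not find all such transcripts. Of 20 carrying the deposited gene ontology term for pectinesterase activity, 3 were higher and 3 lower members, with 2 called in each direction.

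Expansins, which loosen walls during growth, were represented by Locus 3414, an alpha-expansin 11 that rose from 25.2 to 141 in gall flowers and from 18.03 to 68.7 in seed flowers (edgeR adjusted p = 0.0237). A fragment of 110 bp described as expansin, Locus 31145, had 28.5 and 86.8 in gall flowers and 113 and 305 in seed flowers and was not called (edgeR adjusted p = 0.684). Of 39 transcripts for expansins, xyloglucan enzymes and cellulose, 3 were higher and 2 lower members. Beta-glycosidases, which trim sugars from wall polymers or release them from glycosides, gave 8 higher members of 42 (19%) with 5 called and 1 lower member, again in a list put together after the values were seen. Among them Locus 1085, a beta-galactosidase, rose from 62.2 to 319 in gall flowers and from 1.47 to 147 in seed flowers. Its ratio was 5.13 in gall flowers and 100.02 in seed flowers, where the receptive library held 49 reads, and the edgeR log2 change was 4.41 ± 0.90 (edgeR adjusted p = 0.0312). A second beta-galactosidase, Locus 9372, changed more evenly, from 34.1 to 173 in gall flowers and from 18.9 to 124 in seed flowers (edgeR adjusted p = 0.00939). Locus 116, a beta-glucosidase D4, rose from 72.9 to 259 in gall flowers and from 11.1 to 43.01 in seed flowers (edgeR adjusted p = 0.0363). Its fitted log2 change was -0.11 without the pollinated gall library. That fit had no block and set pollinated seed flowers against both receptive libraries, whereas within seed flowers the ratio was 3.87.

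Oxidative enzymes were among the higher members as well. Peroxidases of the secreted plant class, which use hydrogen peroxide to cross-link or loosen walls, and glutathione transferases, which attach glutathione to reactive compounds, gave 7 higher members of 59 (11.9%), 0 lower members and 5 calls. Locus 2214, the most abundant of them, had an RPKM of 81.5 in receptive and 614 in pollinated gall flowers and 42.4 in receptive and 332 in pollinated seed flowers, so that the pollinated libraries exceeded the receptive ones by 7.54-fold and 7.85-fold (edgeR adjusted p = 0.00458). Locus 11131, peroxidase 55, had the lowest receptive levels of these members and rose from 1.03 to 35.4 in gall flowers and from 1.75 to 20.2 in seed flowers (edgeR adjusted p = 0.00873). The glutathione transferase Locus 123 rose from 13.4 to 127 in gall flowers and from 4.43 to 27.8 in seed flowers (edgeR adjusted p = 0.0115). Locus 524, a homolog of L-ascorbate oxidase, an enzyme of the cell wall space that oxidises vitamin C, had 4.41 in receptive and 84.4 in pollinated gall flowers and 0.905 in receptive and 28.7 in pollinated seed flowers (edgeR adjusted p = 0.000892). Of transcripts carrying the deposited gene ontology term for peroxidase activity, 6 of 35 were higher and 0 lower members.

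Proteins known from defence against fungi and insects were members in both directions. In the list of pathogenesis-related and inhibitor proteins 6 of 37 (16.2%) were higher members, 5 of them called, and 2 (5.41%) were lower members that were not called. The list as a whole had median log2 ratios of -0.26 in gall and -0.46 in seed flowers, with 8 of the 37 above a ratio of 1 in both flower types and 18 below it in both. Locus 2619, a major latex protein, rose from 19.1 to 172 in gall flowers and from 5.55 to 78.3 in seed flowers (edgeR adjusted p = 0.00208). The class IV chitinases, which cut the chitin of fungal walls, rose from 18.5 to 139 in gall flowers and from 1.46 to 15.4 in seed flowers (Locus 1182, edgeR adjusted p = 0.006805) and from 5.61 to 62.5 in gall flowers and from 1.91 to 7.16 in seed flowers (Locus 230, edgeR adjusted p = 0.02802). A thaumatin-like protein, Locus 774, rose from 65.2 to 301 in gall flowers and from 6.55 to 25.2 in seed flowers (edgeR adjusted p = 0.02802). Its fitted log2 change was -0.66 without the pollinated gall library, again in a fit without the block, whereas within seed flowers the ratio was 3.85. All 4 of these transcripts were more abundant in gall than in seed flowers at both stages. Locus 32872, described as lectin KM+, a mannose-binding lectin known from jackfruit seeds, had 1.34 in receptive and 53.5 in pollinated gall flowers and 1.06 in receptive and 29.3 in pollinated seed flowers and rose by 5.06 ± 0.67 on the log2 scale (edgeR adjusted p = 0.00309). Another transcript of that description, Locus 23805, had 167 and 30.9 in gall flowers and 66.2 and 32.3 in seed flowers, a change in the other direction that was not called (edgeR adjusted p = 0.124). The lectin Locus 32001, whose best match is a galactose-binding lectin of Artocarpus hirsuta, fell from 1022 to 128 in gall flowers and from 565 to 99.4 in seed flowers (edgeR adjusted p = 0.00678).

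Proteases were among the higher members too. Locus 1320, a cysteine proteinase, rose from 20.2 to 233 in gall flowers and from 52.3 to 363 in seed flowers (edgeR adjusted p = 0.00355), and unlike most higher members it was more abundant in seed flowers at both stages. Serine carboxypeptidases, which clip amino acids from the end of proteins, rose from 5.93 to 18.9 in gall flowers and from 7.68 to 74.1 in seed flowers (Locus 2552, edgeR adjusted p = 0.02802) and from 10.2 to 56.7 in gall flowers and from 7.92 to 24.9 in seed flowers (Locus 21772, edgeR adjusted p = 0.0343). Of 67 secreted and vacuolar proteases 5 were higher members (7.46%), 1 was a lower member and 3 were called. Locus 521, described as calmodulin binding, rose from 2.23 to 109 in gall flowers and from 1.39 to 27.02 in seed flowers (edgeR adjusted p = 0.00135). A second transcript of this description, Locus 40475, rose from 1.81 to 137 in gall flowers and from 2.66 to 23.4 in seed flowers (edgeR adjusted p = 0.0257). Locus 5080, described as a replicase polyprotein, a protein of RNA viruses, was the longest member at 8500 bp. It rose from 4.58 to 57.8 in gall flowers and from 6.398 to 79.1 in seed flowers (edgeR adjusted p = 0.00164), with ratios of 12.6 and 12.4 that were nearly equal.

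**Figure D2:**
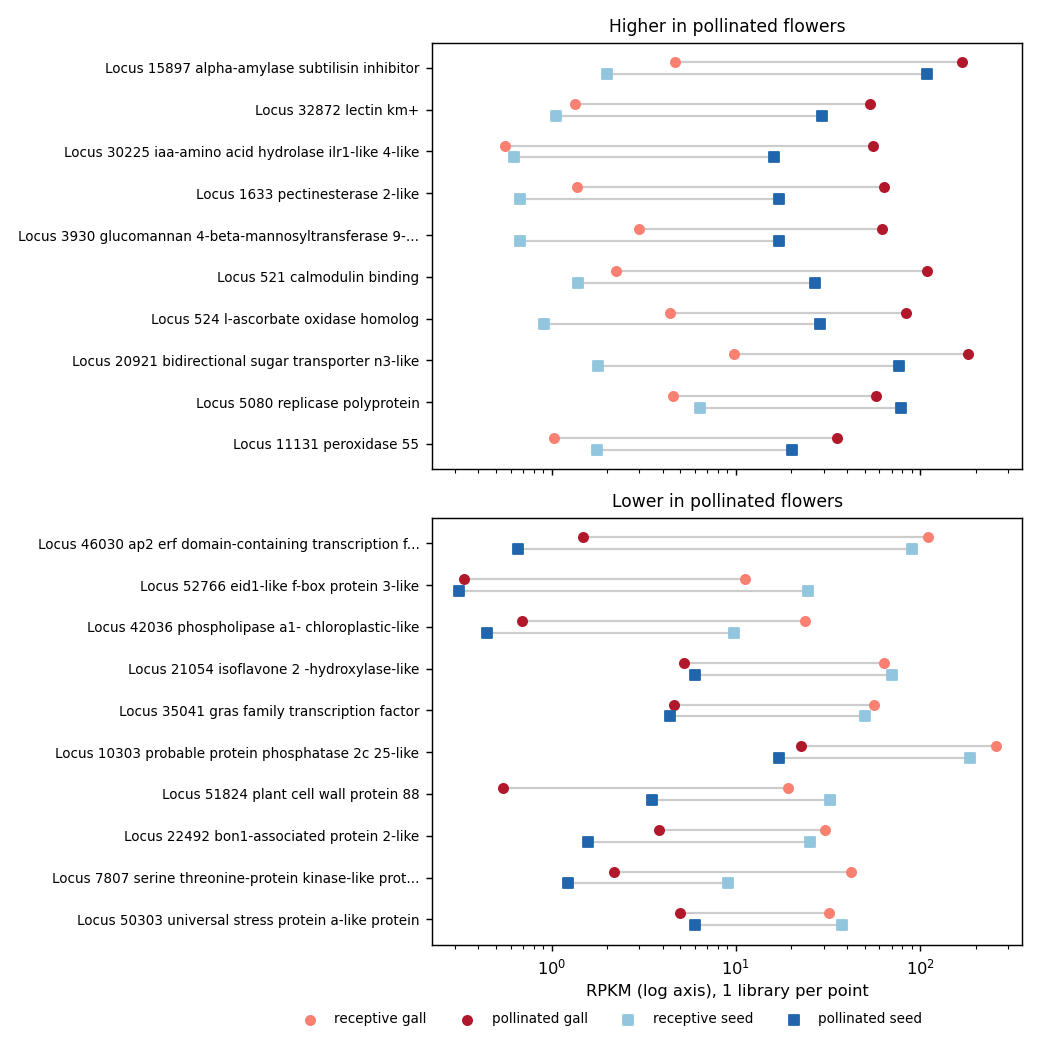
RPKM on a log axis of the 10 described members named by rule in each direction, ordered by the change in the weaker flower type, with 1 transcript per description and at least 10 reads in every library, and with 1 point per library (circles for gall and squares for seed flowers, pale for receptive and dark for pollinated) and a grey line joining the stages of each flower type. In every transcript shown both receptive libraries lie on one side of both pollinated libraries, as the choice of members within each flower type favours, and the change within a flower type spans from 6.23-fold (Locus 50303, seed flowers) to 138-fold (Locus 46030, seed flowers).

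Some higher members act on auxin or make other hormones, and they were picked out after their values were seen. IAA-amino acid hydrolases, which in Arabidopsis release active auxin from its conjugates, rose from 0.559 to 55.3 in gall flowers and from 0.629 to 16.2 in seed flowers for Locus 30225 (edgeR adjusted p = 0.00208) and from 12.6 to 67.7 in gall flowers and from 2.44 to 8.75 in seed flowers for Locus 2238 (edgeR adjusted p = 0.0397). For the first of these the ratio was 98.9 (74.3 to 135) in gall flowers and 25.7 (14.6 to 50.1) in seed flowers. Locus 12222, an indole-3-acetic acid-amido synthetase, which makes such conjugates and so works in the opposite direction, rose from 1.19 to 12.6 in gall flowers and from 2.13 to 21.8 in seed flowers (edgeR adjusted p = 0.0164). Of 6 transcripts described as such hydrolases 3 were higher members and 2 were called, and of 4 described as amido synthetases 1 was a higher member and was called. Enzymes of the last steps of ethylene and of gibberellin synthesis had higher levels that edgeR did not call. The 1-aminocyclopropane-1-carboxylate oxidase Locus 25168 had 39.6 and 127 in gall flowers and 70.3 and 177 in seed flowers (edgeR adjusted p = 0.137), and the gibberellin 20-oxidase Locus 3219 had 7.58 and 26.3 in gall flowers and 5.77 and 17.4 in seed flowers (edgeR adjusted p = 0.187).

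Auxin-responsive transcripts were among the lower members. Small auxin up RNA (SAUR) genes are switched on within minutes by auxin in many plants and promote cell expansion. Of the 16 SAUR-type transcripts compared, in a family picked out after the values were seen, 12 were lower members (75%) and 0 were higher members. None of the 16 was called by edgeR, with a smallest adjusted p of 0.0608 and with 10 at an unadjusted p under 0.05, while DESeq2 called 6 and limma voom 1. The 12 had a median RPKM of 18 (5.02 to 43.9) in receptive and 4.92 (2.05 to 15.6) in pollinated gall flowers and of 51 (20.03 to 133) and 12.5 (3.56 to 30.1) in seed flowers. The most abundant were Locus 44490, with 43.9 and 9.07 in gall flowers and 121 and 19.5 in seed flowers, and Locus 16002, with 31.2 and 8.23 in gall flowers and 133 and 19.8 in seed flowers. Receptive seed flowers exceeded receptive gall flowers in 16 of 16 transcripts, and pollinated seed exceeded pollinated gall flowers in 15 of 16. The 4 that were no members were Locus 24756, Locus 4137, Locus 5975 and Locus 9548, the last with 8.25 and 16.1 in gall flowers and 12.01 and 20.03 in seed flowers. In the wider auxin list, which holds 4 of these SAUR members under the name auxin-induced protein, 7 of 54 were lower members (13%), 2 were higher members and 1, the synthetase Locus 12222, was called. An auxin-repressed protein was among the lower members as well (Locus 11254, 370.3 and 123 in gall flowers and 806 and 244 in seed flowers, edgeR adjusted p = 0.0631), as was an early auxin-inducible repressor of the Aux/IAA type (Locus 6854, 209 and 41.8 in gall flowers and 136 and 49.2 in seed flowers, edgeR adjusted p = 0.0506).

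The transcription factors of the AP2/ERF family included the steepest declines. The family binds promoters of genes for ethylene, cold, drought and wounding responses. Locus 46030 had an RPKM of 111 in receptive and 1.48 in pollinated gall flowers and 90.6 in receptive and 0.656 in pollinated seed flowers, and therefore was 74.8-fold lower in gall and 138-fold lower in seed flowers. Its edgeR log2 change of -6.64 ± 0.53 had the smallest adjusted p of all transcripts (edgeR adjusted p = 0.000246). Locus 52935, described as CRT binding factor 3, a factor of the same family known in Arabidopsis for switching on cold-response genes, held 1269 and 180 reads in the receptive gall and seed libraries and 4 and 2 reads in the pollinated ones. Its RPKM fell from 23.2 to 0.0630 in gall flowers and from 14.5 to 0.0840 in seed flowers (edgeR adjusted p = 0.00208), and with so few reads left the 95% interval of the ratio in seed flowers ran from 0.000699 to 0.0213.

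Other members of the family fell less. Locus 45503 fell from 60.7 to 4.67 in gall flowers and from 50.2 to 2.56 in seed flowers (edgeR adjusted p = 0.00243), Locus 5649 from 67.9 to 15.4 in gall flowers and from 73.96 to 12.7 in seed flowers (edgeR adjusted p = 0.0137), and the ethylene-responsive factor 5-like Locus 47696 from 116 to 13.5 in gall flowers and from 80.3 to 17.2 in seed flowers (edgeR adjusted p = 0.00943). The ethylene list held 8 lower members of 39 (20.5%), 5 of them called, and 1 higher member (2.56%). The 8 were 7 transcription factors and Locus 4104, an ethylene-regulated transcript that fell from 63.1 to 15.2 in gall flowers and from 52.7 to 8.87 in seed flowers (edgeR adjusted p = 0.0175). The higher member was the oxidase Locus 25168 given above, which was not called. Among the members of the list the factors and this enzyme thus lay on opposite sides. All 39 transcripts of the list had median log2 ratios of -0.2 in gall and 0.09 in seed flowers. In both flower types 7 of them lay above a ratio of 1 and 17 below it. The most abundant of the factors, Locus 2590, had 258 and 73.9 in gall flowers and 263 and 89.002 in seed flowers and missed the threshold (edgeR adjusted p = 0.0631).

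**Figure D3:**
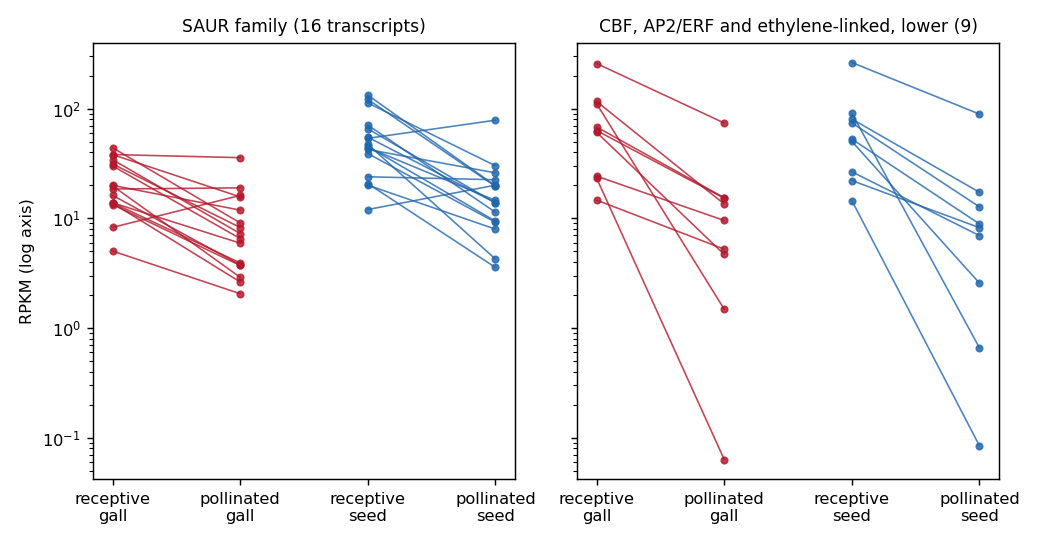
RPKM on a log axis in the 4 libraries, with gall flowers in red and seed flowers in blue and lines joining the stages of 1 transcript. The left panel shows all 16 SAUR-type transcripts, of which 12 are lower members and were higher in receptive seed than in receptive gall flowers, and the right panel the 8 lower members of the ethylene list with CRT binding factor 3, all of which slope downwards in both flower types.

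Ubiquitin ligases and F-box proteins mark other proteins for breakdown. Among 215 such transcripts 11 were lower members (5.12%) with 5 called, and 1 was a higher member with 1 called, in a list put together after the values were seen. Locus 52766, an EID1-like F-box protein, of the kind that acts in phytochrome signalling in Arabidopsis, had 11.2 in receptive and 0.334 in pollinated gall flowers and 24.7 in receptive and 0.314 in pollinated seed flowers (edgeR adjusted p = 0.00367). Another F-box protein, Locus 38098, fell from 134 to 24.3 in gall flowers and from 107 to 11.5 in seed flowers (edgeR adjusted p = 0.00678), and a RING-type ligase, Locus 35137, fell almost equally in the flower types, from 122 to 32.1 in gall flowers and from 119 to 31.6 in seed flowers (edgeR adjusted p = 0.0346). Locus 10303, a protein phosphatase 2C, was far more abundant and fell from 257 to 22.7 in gall flowers and from 187 to 17.2 in seed flowers (edgeR adjusted p = 0.00203). A further protein phosphatase 2C, Locus 5159, was a higher member with 6.78 and 21.7 in gall flowers and 8.79 and 22.8 in seed flowers that was not called (edgeR adjusted p = 0.422), and these were the 2 members among the 22 transcripts of that description. The GRAS family factor Locus 35041 fell from 56.1 to 4.62 in gall flowers and from 50.4 to 4.39 in seed flowers and the isoflavone 2'-hydroxylase-like cytochrome P450 Locus 21054 fell from 63.9 to 5.25 in gall flowers and from 70.2 to 6.03 in seed flowers, with the same edgeR adjusted p of 0.00208. In Locus 10303, Locus 35041 and Locus 21054 the decline lay between 10.9-fold and 12.2-fold in either flower type.

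Jasmonate is a hormone of wounding and of flower opening. Locus 44024, a jasmonate O-methyltransferase, which makes the volatile methyl ester, fell from 62.5 to 10.7 in gall flowers and from 132 to 26.5 in seed flowers (edgeR adjusted p = 0.0116). Locus 9286, described as the transcription factor MYC2, a central switch of jasmonate responses in Arabidopsis, lies outside the words of the hormone list and fell from 115 to 35.1 in gall flowers and from 86.8 to 21.1 in seed flowers (edgeR adjusted p = 0.03702). The lipoxygenase Locus 4506, of the first step of jasmonate synthesis, had 159 and 77.1 in gall flowers and 155 and 40.5 in seed flowers and was not called (edgeR adjusted p = 0.149). Of 31 transcripts for jasmonate, salicylate and abscisic acid 2 were lower members (6.45%), 1 of them called, and 0 were higher members. This list as a whole had median log2 ratios of 0.09 in gall and 0.06 in seed flowers. In both flower types 11 of the 31 lay above a ratio of 1 and 7 below it. Lipases of the phospholipase A1 type fell from 23.8 to 0.689 in gall flowers and from 9.72 to 0.447 in seed flowers (Locus 42036, edgeR adjusted p = 0.00678) and from 22.8 to 2.48 in gall flowers and from 12.6 to 1.99 in seed flowers (Locus 39837, edgeR adjusted p = 0.0383).

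Calcium sensors were among the lower members. The calmodulin-like protein CML27, Locus 5544, fell from 209.6 to 41.5 in gall flowers and from 267 to 55.9 in seed flowers (edgeR adjusted p = 0.0137). In the calcium list of 81 transcripts 5 were lower members (6.17%), 1 called, and 2 (2.47%), the calmodulin binding transcripts above, were higher members that were both called. Locus 7807, a CCR3-like receptor kinase, fell from 42.1 to 2.19 in gall flowers and from 9.03 to 1.23 in seed flowers (edgeR adjusted p = 0.00712). Locus 22492, a BON1-associated protein, a relative of a protein that restrains cell death in Arabidopsis, fell from 30.4 to 3.81 in gall flowers and from 25.2 to 1.58 in seed flowers (edgeR adjusted p = 0.0373).

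Some lower members were among the abundant transcripts of receptive flowers. Locus 50267, described as a 21 kDa protein, fell from 1716 to 333 in gall flowers and from 2424 to 762 in seed flowers (edgeR adjusted p = 0.0299), and Locus 48235, of the same description, fell from 885 to 162 in gall flowers and from 2391 to 434 in seed flowers (edgeR adjusted p = 0.00952). A BURP domain protein, of a family of secreted plant proteins, fell from 866 to 236 in gall flowers and from 2164 to 551 in seed flowers (Locus 24486, edgeR adjusted p = 0.0312), and a gibberellin-regulated protein fell from 134 to 33.9 in gall flowers and from 510.2 to 135 in seed flowers (Locus 9621, edgeR adjusted p = 0.0307). A late embryogenesis abundant protein, Locus 37719, of the proteins that guard cells against drying, fell from 152 to 33.99 in gall flowers and from 433 to 50.3 in seed flowers (edgeR adjusted p = 0.0106). In all 5 of these transcripts receptive seed flowers had the highest level of the 4 libraries.

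A pair of transcripts of the daily clock moved in opposite directions. LHY, a factor that in Arabidopsis peaks around dawn, rose from 9.71 to 43.03 in gall flowers and from 5.15 to 59.1 in seed flowers (Locus 29705, edgeR log2 change 2.81 ± 0.47, adjusted p = 0.0112). FKF1, an F-box blue light receptor that in Arabidopsis peaks late in the day, fell from 44.2 to 9.58 in gall flowers and from 61.2 to 12.4 in seed flowers (Locus 11338, -2.27 ± 0.41, adjusted p = 0.0173). The other 5 clock and light transcripts compared were not called, among them gigantea, Locus 5363, with 109.9 and 34.1 in gall flowers and 19.4 and 23.1 in seed flowers. This list was put together after the values were seen. The hour at which each stage was collected is not given in the sources used here, and its part in any of the changes was not tested.

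**Figure D4:**
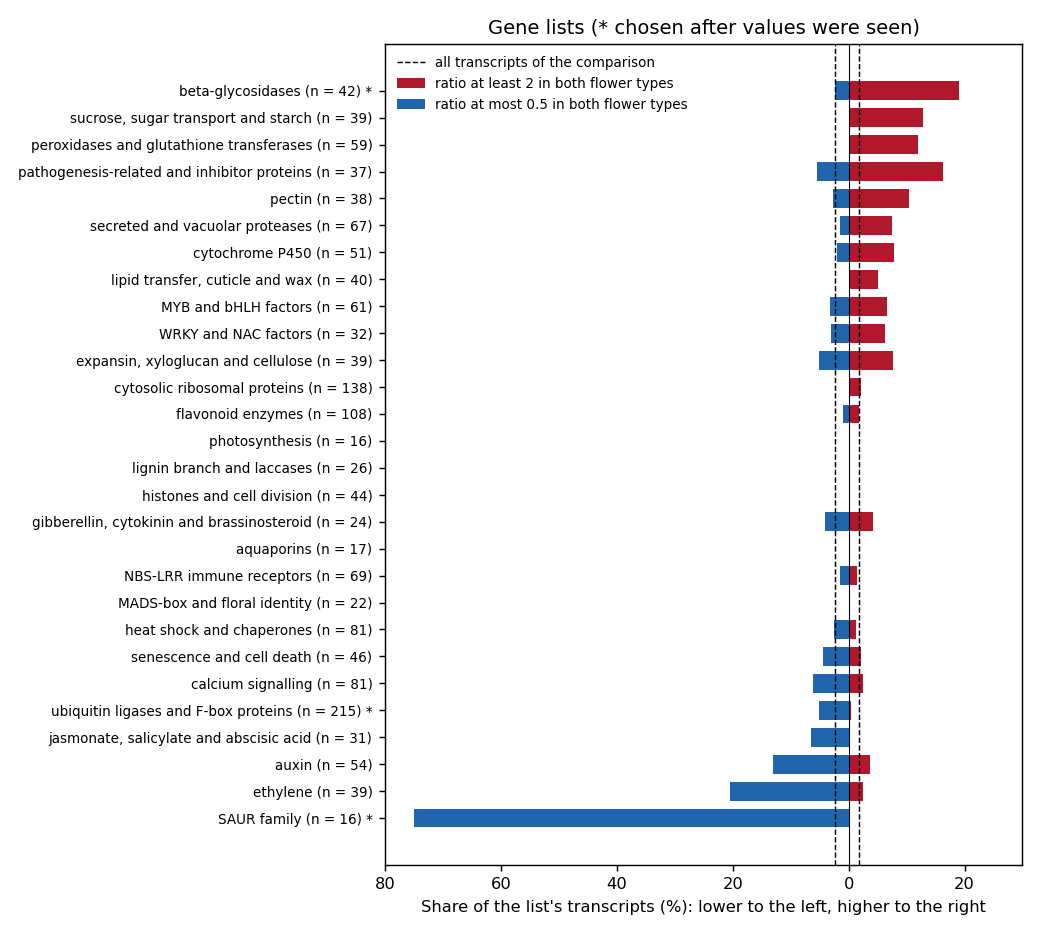
Bars show the share in percent of each gene list that was a higher member (red, to the right of 0) or a lower member (blue, to the left), with the number compared in brackets, for lists of fig genes with at least 16 transcripts (the microbial or ribosomal RNA-like list, with 61.1% lower members, is not plotted), and dashed lines mark the shares of all transcripts (1.77% and 2.29%). Beta-glycosidases (19%), pathogenesis-related proteins (16.2%), sugar genes (12.8%) and peroxidases (11.9%) extend farthest to the right, and SAUR (75%), ethylene (20.5%) and auxin (13%) farthest to the left.

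Several gene groups held 0 members in either direction. These were photosynthesis (16 transcripts compared), MADS-box and floral identity factors (22), histones and cell division (44), the lignin branch and laccases (26), and the terpenoid list (11). In these 5 lists edgeR, DESeq2 and limma voom each called 0, and 1, 2, 0, 2 and 1 transcripts had an unadjusted edgeR p under 0.05. At the shares of all transcripts (1.77% and 2.29%) lists of these sizes would hold few members or 0, so the 0 does not set them apart. The photosynthesis list had median log2 ratios of -1.14 in gall and 0.08 in seed flowers. Locus 8129, described only as cell division, fell outside the words of its list and was a higher member with 7.06 and 17.1 in gall flowers and 10.8 and 23.3 in seed flowers, not called (edgeR adjusted p = 0.739) and noted after its values were seen. The list of aquaporins found by that word also held 0 members of 17, but Locus 9760, described as of the MIP TIP subfamily, the aquaporins of the vacuole membrane, rose from 6.92 to 100.3 in gall flowers and from 8.32 to 50.4 in seed flowers (edgeR adjusted p = 0.00765), and was noted after its values were seen. Likewise Locus 4474, described as myrcene and chloroplastic, the name of a monoterpene synthase, fell outside the words of the terpenoid list and rose from 2.22 to 24.96 in gall flowers and from 1.52 to 13.9 in seed flowers (edgeR adjusted p = 0.0137). Among 138 cytosolic ribosomal proteins 3 were higher members, and among 108 flavonoid enzymes 2 were higher and 1 was a lower member, shares near the background of all transcripts.

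The deposited gene ontology terms were counted over the same 10267 transcripts. Carbohydrate metabolic process was attached to 13 higher members and 1 lower member of 97 transcripts, and hydrolysis of O-glycosyl compounds to 7 and 0 of 35. Transcription factor activity was attached to 5 higher and 12 lower members of 223, and response to auxin stimulus to 2 and 7 of 62. Oxidation reduction was attached to 18 and 7 of 471. These terms overlap with the lists above and come from the same protein matches.

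The ratios did not use transcript length or description. Higher members had a median length of 1460 bp and lower members of 951 bp, against 1540 bp for all transcripts compared. Transcripts under 200 bp made up 3.3% of the higher, 17.4% of the lower members and 9.66% of all. A description naming a protein was present for 134 of the 182 higher (73.6%) and 130 of the 235 lower members (55.3%), and for 67.3% of all. Receptive gall flowers exceeded receptive seed flowers in 129 of the higher members (70.9%) and in 65 of the lower members (27.7%), against 44.2% of all. At the pollinated stage the same held for 146 higher (80.2%) and 85 lower members (36.2%), against 40.6% of all. The levels that enter these shares are the ones that chose the members, and the shares are given without a test.

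A subset of the lower members rested on the receptive seed library. In 31 of them the RPKM of receptive seed flowers was at least 5 times that of receptive gall flowers, with medians of 121 and 5.24, and medians of 5.74 and 2.02 in pollinated seed and pollinated gall flowers. Their median length was 199 bp, 16 were under 200 bp, 8 had a description naming a protein and 4 were called. Descriptions of bacterial or ribosomal RNA-like sequence made up 11 lower members of 18 such transcripts compared (61.1%), in a list put together after the values were seen, for example Locus 19309, a cell wall-associated hydrolase, with 4.301 and 2.03 in gall flowers and 173 and 4.45 in seed flowers. Leaving the 31 out left 204 lower members. The receptive seed library is also the one with the fewest reads, and the part of depth or of other organisms in these values was not tested.

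Undescribed transcripts reached similar sizes. Locus 33284, of 138 bp, rose from 58.5 to 811 in gall flowers and from 43.8 to 409 in seed flowers (edgeR adjusted p = 0.00367), the highest level of any higher member in pollinated gall flowers. Locus 53103, of 208 bp, fell from 167 to 19.8 in gall flowers and from 420.01 to 15.2 in seed flowers (edgeR adjusted p = 0.00796), and Locus 43315, of 1255 bp, fell from 40.6 to 5.17 in gall flowers and from 28.1 to 4.43 in seed flowers (edgeR adjusted p = 0.02802). Locus 21186 and Locus 30180, described only as protein, had some of the lowest p-values of the falling transcripts. The first fell from 223 to 9.85 in gall flowers and from 119 to 6.36 in seed flowers (edgeR adjusted p = 0.000892), and the second from 97.9 to 6.698 in gall flowers and from 97.9 to 7.06 in seed flowers (edgeR adjusted p = 0.00186), in nearly the same measure in the 2 flower types.

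Members near the thresholds differed little from transcripts just outside them. Locus 50489 (ratios of 2.00 and 2.18) and the asparaginase Locus 1331 (5.37 and 2.00) lay just inside the ratio of 2, and Locus 4702 (2.18 and 1.99) and the F-box protein Locus 7789 (1.99 and 2.57) just outside it, giving the gall ratio first. At the ratio of 0.5, Locus 8752 (0.467 and 0.4996) and Locus 28409 (0.499 and 0.420) lay just inside, and Locus 35030 (0.505 and 0.485) and Locus 10677 (0.392 and 0.508) just outside.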

How the data were processed

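RNA-seq values of 4 pooled libraries of Ficus obtusifolia flowers were used. The authors trimmed paired-end reads (FastQC 0.10.0, Trimmomatic 0.22), assembled all libraries with Oases, kept 1 sequence per locus and mapped each library with CLC Genomics Workbench. They deposited counts of all mapped reads and of uniquely mapped reads per transcript, neither of them scaled, and RPKM, which is the deposited count of all mapped reads scaled to transcript length and library total. RPKM rebuilt from the counts differed by at most 5.0e-04. Reads matching several transcripts made up 1.61% to 2.27% of a library, so near-identical copies share them. A further 12 columns that repeat others for single libraries were not used, and transcript sequences were not used here.

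Ratios are of deposited RPKM. The stage test was edgeR 4.0.16 (R 4.3.3; estimateDisp, glmQLFit, glmQLFTest) on counts, with TMM factors, library sizes summed over the whole table, flower type as block and Benjamini-Hochberg adjustment over 10267 transcripts. Standard errors are the absolute log2 change divided by the square root of F. The biological coefficient of variation was 0.364. The fit was tested on simulated data with no difference between flower types and the same stage change in both. Such data do not show how the fit behaves where the flower types change unequally, as many transcripts did here. Ratio intervals (95%) are exact conditional binomial. A count of 0 was set to 3 reads, making the ratio a bound. Alternatives were DESeq2 1.42.0, limma voom 3.58.1, Kal's Z-test, other factors, minimums and ratios, thinning, no block, and leaving out each library.

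For each direction a rule picked the 10 described members (1 transcript per description) with the largest change in the weaker flower type. These had at least 10 reads in every library. The rule also picked 3 undescribed members in the same way, and for each list the 2 members of highest mean RPKM. Further picks were the 5 transcripts with the lowest p and the 2 on either side of each threshold. Some of the transcripts picked are not named in the text. Other members were named after their values were seen. The members and all 39 lists, found by words in the deposited descriptions, were chosen with earlier results of these data known, and 7 lists were added after the values were seen.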

Additional observations from a re-analysis of the deposited data

Results flagged for a closer look

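Not every large change was shared. A ratio of at least 2 in gall flowers went with a ratio of at most 0.5 in seed flowers for 53 transcripts, and the reverse held for 88. With 1 library per flower type and stage this difference was not tested. Among the 88 were long chain acyl-CoA synthetase 1 (Locus 9392, receptive and pollinated RPKM of 103 and 28.3 in gall flowers and of 1.06 and 22.8 in seed flowers), a germacrene D synthase (Locus 20881, 457 and 93.9 in gall and 6.23 and 93.3 in seed flowers) and a pectin methylesterase (Locus 171, 653 and 207 in gall and 18.6 and 142 in seed flowers). In these 3 the receptive libraries differed widely between the flower types and the pollinated libraries lay close to each other. A transcript described only as protein, Locus 42, was among the 53, with 82.1 and 167 in gall and 115 and 16.9 in seed flowers.

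The minimum of 10 reads in each receptive library kept out 167 transcripts with an RPKM above 20 in a library. Of these, 36 had at least 10 reads in both pollinated libraries and a ratio of at least 2 in both flower types, taking 3 reads for a receptive count of 0 so that the ratio is a lower bound. Locus 5646, a xyloglucan endotransglucosylase, which cuts and rejoins wall polymers, held 32 and 8 reads in the receptive gall and seed libraries and 4648 and 1585 in the pollinated ones. Locus 765, a flavonol O-methyltransferase, held 113 and 4 against 10689 and 967, and Locus 22485, a beta-glucosidase D4, held 343 and 7 against 6402 and 601. Locus 2173, described as cytochrome oxidase subunit 1, held 0 and 2 reads against 11745 and 46 at the pollinated stage, a division like that of the hymenopteran transcripts. Transcripts with fewer than 10 reads in a receptive library are therefore not counted among the 182, whatever their ratios. Not all of the 36 were near 0 in both receptive libraries. Locus 21627, described as beta-glucosidase 12-like, held 626 reads in the receptive gall and 3 in the receptive seed library.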

How the results depend on the processing

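The number of calls depended on the settings of the test. Against 80 higher and 63 lower calls in the reported edgeR fit, DESeq2 gave 135 and 137 and limma voom 107 and 100, and both called all 143 of those transcripts. Without the flower type block the counts were 0 and 0. A minimum of 30 receptive reads gave 32 and 40 calls, and thinning every library to 11584069 reads gave 33 and 34. Calls made by Kal's Z-test in the same direction in both flower types, a test without replicate spread, numbered 230 and 233. Leaving out 1 library gave 0 to 25 higher and 0 to 2 lower calls. By library this was 0 in all without receptive gall or without receptive seed flowers, 2 without pollinated gall and 27 without pollinated seed flowers, with a lone library at a stage assumed to vary like the other stage. The fitted log2 change of Locus 774 ranged from -0.66 to 4.75 and that of Locus 116 from -0.11 to 3.87 with 1 library left out, both lowest without the pollinated gall library. These fits had no block, so the difference between flower types entered the fitted stage change. Other settings, among them no TMM factors (121 calls), median-of-ratios factors (150), uniquely mapped reads (155) and transcripts of at least 200 bp (133), kept each count within 1.5 times. A similar count could hold other transcripts. Without the RPKM minimum 143 were called, and 106 of them were among the 143 reported. With an RPKM above 5, 107 of the reported calls were kept, and with at least 10 reads in any 2 libraries 103. Why the counts moved was not tested.

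The number of members depended on the minimums. Without an RPKM minimum there were 341 higher and 673 lower members, with an RPKM above 5 there were 292 and 456, and with at least 10 reads in any 2 libraries 995 and 737. A ratio of 1.5 gave 370 and 526, a ratio of 3 gave 109 and 112, and a ratio of 4 gave 73 and 67. An RPKM above 20 in both libraries of the stage where the member was high, a setting chosen after the data were seen, gave 103 and 154, and 204 lower members were left without those resting on receptive seed flowers. Members cannot be found with a library left out, since a flower type then has no ratio. Flower type, the pairing that the design offers, is the block of the reported fit, and a block by replicate number could not be fitted because the labels give none.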

Other observations

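Some members that handle nitrogen compounds lie outside the lists and were chosen here after their values were seen, with no count behind them. The ureide permease Locus 8347, a carrier of the nitrogen-rich ureides, rose from 21.02 to 68.9 in gall flowers and from 4.98 to 25.3 in seed flowers (edgeR adjusted p = 0.0444). The asparaginase Locus 1331, which frees ammonia from asparagine, had 46.9 and 252 in gall flowers and 21.3 and 42.7 in seed flowers, and the allantoate amidohydrolase Locus 5558, which breaks down a ureide, had 7.86 and 34.7 in gall flowers and 11.04 and 27.1 in seed flowers, neither of them called by edgeR. A proline transporter, Locus 3101, had 31.3 and 66.9 in gall flowers and 15.1 and 46.6 in seed flowers and was not called either. Locus 43329, a neutral amino acid transport protein, fell from 158 to 23.4 in gall flowers and from 39.6 to 10.7 in seed flowers (edgeR adjusted p = 0.0177).

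Further single members were likewise named after their values were seen. The heat shock factor Locus 1301 rose from 6.06 to 50.4 in gall flowers and from 1.78 to 19.3 in seed flowers (edgeR adjusted p = 0.0112), whereas the chloroplast DnaJ chaperone Locus 2206 fell from 294 to 66.5 in gall flowers and from 264 to 61.1 in seed flowers (edgeR adjusted p = 0.02004). In the heat shock list 1 of 81 transcripts was a higher and 2 were lower members. Locus 46360, a homolog of the CCR4-associated factor 1, which shortens the poly(A) tail of messenger RNA, fell from 98.98 to 17.6 in gall flowers and from 159.9 to 16.8 in seed flowers (edgeR adjusted p = 0.00678). The nudix hydrolases Locus 27998 and Locus 2818, of a family that splits nucleoside diphosphate compounds, fell from 190.2 to 36.5 in gall flowers and from 277 to 39.02 in seed flowers (edgeR adjusted p = 0.00828) and from 338 to 62.8 in gall flowers and from 268 to 64.5 in seed flowers (edgeR adjusted p = 0.0175). A germin-like protein of the cell wall, Locus 4560, rose from 1.501 to 89.4 in gall flowers and from 3.59 to 31.4 in seed flowers (edgeR adjusted p = 0.00952), and a CASP-like membrane protein, Locus 855, rose from 30.6 to 319 in gall flowers and from 3.36 to 197 in seed flowers (edgeR adjusted p = 0.005402).

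The remaining lists held few members, though several of their shares lay above the 1.77% and 2.29% of all transcripts. WRKY and NAC factors gave 2 higher (6.25%) and 1 lower member (3.12%) of 32. MYB and bHLH factors gave 4 (6.56%) and 2 (3.28%) of 61, and cytochromes P450 4 (7.84%) and 1 (1.96%) of 51. The NBS-LRR immune receptor list gave 1 (1.45%) and 1 (1.45%) of 69, and senescence and cell death 1 (2.17%) and 2 (4.35%) of 46. Lipid transfer, cuticle and wax gave 2 (5%) and 0 of 40. Members of the NBS-LRR list were a plant disease resistance response protein (Locus 28044, higher) and a nematode-resistance protein (Locus 21642, lower). Neither description names an NBS-LRR receptor. Gibberellin, cytokinin and brassinosteroid gave 1 (4.17%) and 1 (4.17%) of 24. Dehydrins, late embryogenesis and storage proteins gave 1 (12.5%) and 1 (12.5%) of 8, and lectins 1 (12.5%) and 2 (25%) of 8. Chlorophyll synthesis (4 transcripts), stigma and recognition receptors (9) and fungal or bacterial words (8) held 0 members. Words for pollen were found in 12 transcripts, of which 2 calcium-binding allergens were lower members and 0 were higher members.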
